A study of Mus musculus with 27 samples.

Results

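Glutamate carries most fast excitation in the mammalian brain, and 32 mouse genes for its receptors, transporters and postsynaptic scaffold were followed here in whole brain RNA of 2 inbred strains. AMPA receptors (Gria genes) carry the fast current, NMDA receptors (Grin genes) admit calcium and drive synaptic plasticity, kainate receptors (Grik genes) tune release and excitability, and metabotropic receptors (Grm genes) signal through G proteins. Vesicular transporters (Slc17 genes) load glutamate into vesicles, plasma membrane transporters (Slc1 genes) remove it from the cleft, and the Dlg, Homer and Shank proteins hold the receptors in the postsynaptic density.

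The rule picks members by gene name and uses no measured value. The members and the lists used below were, however, chosen with earlier results of these data known. Members are all probe sets, the groups of short array probes that report 1 transcript, whose annotated symbol is one of the 32 listed genes. Symbols were updated through the gene identifier, and sets annotated with several symbols were left out. A probe set was found for 19 of the 32 genes, with 27 probe sets in all, against 8251 named genes and 12422 probe sets in the whole table. The other 13 genes (Grin1, Grin3a, Grik3, Grik4, Grm2, Grm3, Grm4, Grm5, Grm7, Slc17a6, Slc17a7, Shank1 and Shank3) were not analysed here. The NMDA receptors are therefore described without their obligatory subunit, the metabotropic receptors by Grm8 alone and the transporters without the vesicular ones. Of the 27 probe sets, 26 were bright enough to be tested. The Gria2 set 162076_r_at lay below the brightness limit of 35.4, at 1.4 to 7.5 in DBA and 0.1 to 7.6 in C57 animals.

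The study asked how the brain's expression pattern differs between the strains. The DBA group, labelled DBA/2J, held 4 untreated mice whose sex is not given. The C57 group, labelled C57BL/2, held 5 untreated males. All were 10 weeks old, and each of the 9 arrays used, whose titles carry a strain name and a plain number, was taken as 1 animal. Values are the deposited intensities on a linear scale, with no detection call. The level of one probe set cannot be set against that of another, so the comparisons below run between animals within a probe set.

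Array medians ran from 159.6 to 197.75, and the correlation between any 2 arrays across the tested probe sets was 0.939 to 0.978. The Y-linked gene Eif2s3y read 295.8 to 337.8 in DBA and 249.3 to 384.1 in C57 animals by a set whose suffix marks families of similar sequences. The X-inactivation transcript Xist read 16.4 to 24.8 in DBA and 19.6 to 36.0 in C57 animals, below the brightness limit except for C57 animal 3. Both ranges overlapped between the strains. Defining markers of brain cells were bright in every animal. The neuron marker Snap25 read 15349.5 to 21136.4 in DBA and 14792.7 to 18629.9 in C57 animals. The oligodendrocyte marker Mbp read 8180.0 to 10606.1 in DBA and 9177.8 to 11953.6 in C57 animals, and the astrocyte marker Aldoc read 9438.1 to 13092.2 in DBA and 8896.3 to 12564.3 in C57 animals. On 8 marker lists of cell types and regions, every listed gene with a probe set had one above the brightness limit except Cnp (oligodendrocytes) and Rgs9 (striatum); over the whole table, 83.2% of named genes did.

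One library stood apart at the glutamate genes. C57 animal 1 had the highest of the 5 C57 values at 16 of the 26 tested sets (61.5%), against 30.4% of all 9316 sets tested. It lay above the mean of the other C57 animals at 23 of 26 sets (88.5%), against 62.8% of all sets, by a median of 0.38 on the log2 scale, against 0.11. Its largest excesses were at Grin2d (1.27), the Homer1 set 104498_at (1.20), Grin2a (1.08) and Gria3 (1.04). No DBA animal was the highest of its strain at more than 9 of the 26 sets. The excess was not confined to these sets. C57 animal 1 was also the highest C57 animal at many sets of receptor-linked kinases and phosphatases, among them both Camk2a sets, Camk4 and Prkca. At others, such as Camk2b, Fyn and Ppp3r1, it was not.

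The excess was larger at dim probe sets but was present at bright ones. Among the 13 glutamate sets with a mean intensity under 300, the median excess of C57 animal 1 was 0.61, against 0.27 for all such sets. Among the 13 at or above 300, it was 0.18, against 0.0044. After quantile normalization, which gives every array the same distribution of values, C57 animal 1 was still highest at 14 of 26 sets, against 21.2% of all sets, with a median excess of 0.26 against 0.0086.

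**Figure D1:**
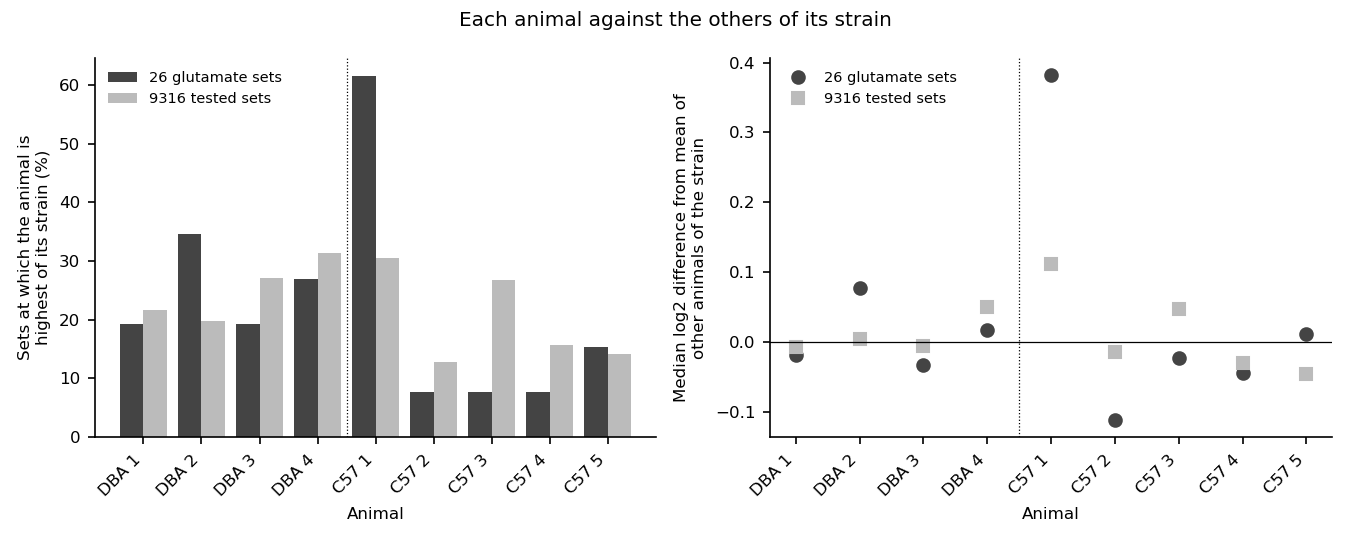
Each animal is set against the others of its strain, DBA left and C57 right, for the 26 tested glutamate probe sets (dark) and all 9316 tested sets (light). The left panel gives the share of sets at which the animal was the highest of its strain in percent, and the right panel the median log2 difference from the mean of the other animals. C57 animal 1 stands at 61.5% and 0.38 for the glutamate sets, and no other animal is above 34.6%.

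Other values of the same library also stood apart. Its array had the highest median intensity of the 9 (197.75). On the list of cortex and hippocampus markers its mean was 0.20 log2 units above the average of the 9 animals, the highest of all. Camk2a is among the 6 tested genes of that list and was already named above, so these observations overlap. On the list of thalamus, midbrain and brainstem markers the mean of C57 animal 1 was the lowest, at -0.32. For pyruvate carboxylase, a control gene with probe sets at both ends of the transcript, the 3' set exceeded the 5' set by a log2 ratio that serves as a measure of RNA quality; it was 0.57 in this animal and 0.95 to 1.22 in the other C57 animals. By the same ratio the DBA animals were at 0.57 to 0.77. C57 animal 1 also had the lowest ratio of the 9 for the control beta-actin (0.50) and the lowest in C57 for Gapdh (-0.29). For transferrin receptor it did not (1.76, with C57 animal 3 at 1.70). The part of these values in the excess was not tested.

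Between the strains, none of the 26 probe sets passed the threshold, a limma p-value adjusted over all 9316 sets of less than 0.05. Over all sets, 233 passed (2.50%). At an unadjusted p under 0.05 the glutamate count was 5 of 26 (19.2%), against 12.2% of all sets. The 2 higher in DBA were the Gria1 set 92943_at and Gria4 (all sets 5.88%), and the 3 lower were Grin2b and the Gria2 sets 92947_s_at and 92945_at (all sets 6.29%). AMPA receptor subunits hold 4 of these 5 sets, from Gria1, Gria2 and Gria4, and an NMDA receptor subunit 1. They also have the most tested sets of any role, 7 of the 26.

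The direction was mixed, with 12 sets above 0 and 14 below and a median log2 difference of -0.049, DBA minus C57, against 0.0091 over all sets. The animals of the strains did not overlap at 1 of the 26 sets, against 6.45% of all sets. For 21 of the 26 sets (80.8%, against 85.3% of all sets) the 95% interval of the difference lay within a 2-fold change in either direction, and for 13, against 56.7% of all sets, within a 1.5-fold change. Without C57 animal 1 the sets split 13 above and 13 below 0, where 55.0% of all sets were above. In that fit 4 of 26 sets (15.4%) had an unadjusted p under 0.05, against 11.8% of all sets, and 1 (Gria1 92943_at) passed the threshold, against 2.16% of all sets.

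The differences of many sets depended on single animals. Leaving out 1 animal at a time turned the sign at 11 of the 26 sets, each with an adjusted limma p of at least 0.839 with all animals. These were Gria1 92944_at, Gria2 92946_f_at, Gria3, Grin2a, Grin2d, Grik1, Grik2 98864_s_at, both Slc1a1 sets, Slc1a6 and Dlg4. At 15 sets the sign held without each animal in turn, among them the 5 with an unadjusted p under 0.05. The largest difference to turn was that of Grin2a, 0.34 with all animals. Differences that turned or moved over 1.5 times without 1 animal were found at 17 of the 26 sets.

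**Figure D2:**
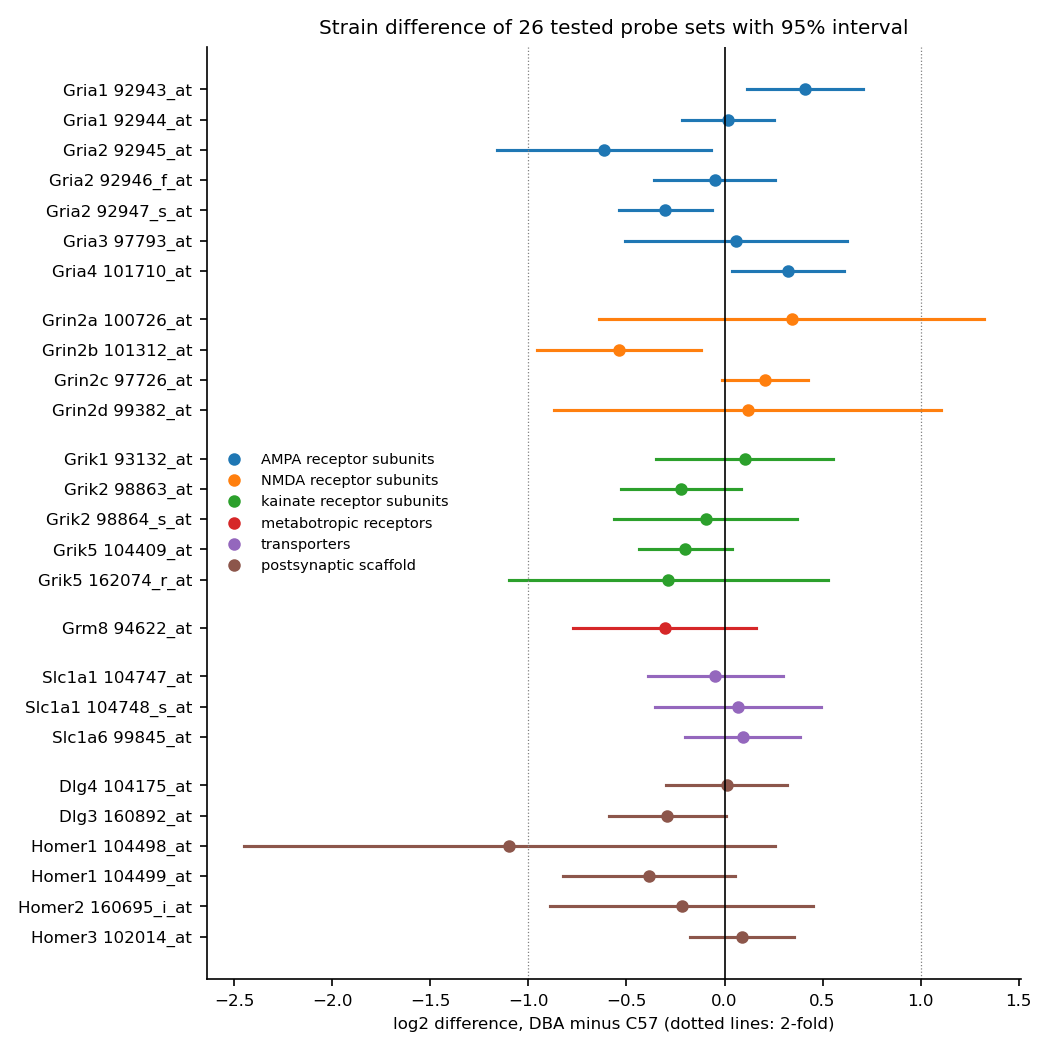
The log2 difference, DBA minus C57, of each of the 26 tested probe sets is drawn as a point with its 95% interval from limma, coloured by role; dotted lines mark a 2-fold change. The intervals of 4 AMPA receptor sets and that of Grin2b leave out 0, and the widest, of the Homer1 set 104498_at, runs from -2.45 to 0.26.

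Gria1 encodes the GluA1 subunit of the AMPA receptor, the subunit whose insertion at synapses is best known from hippocampal plasticity. Its set 92943_at read 1796.4, 1741.2, 1721.6 and 1637.6 in DBA animals 1 to 4, against 1720.6, 1194.8, 1321.2, 1164.1 and 1161.0 in C57 animals 1 to 5. The 4 DBA animals lay close together, and 4 of the 5 C57 animals lay below all of them, while C57 animal 1 fell among the DBA values. The set averaged 1724 ± 65.8 in DBA and 1312 ± 237 in C57 animals (SD, n = 4 and 5). DBA stood at 1.33 times the C57 level, a log2 difference of 0.41 ± 0.13 (here and below ± after a log2 difference is its standard error), which did not pass with all 9 animals (limma adjusted p = 0.198). Without C57 animal 1 it passed, at 0.51 with a 95% interval of 0.29 to 0.73 (adjusted p = 0.0296). Leaving out any other animal left the adjusted p above 0.05, and the smallest under the settings that kept all 9 animals was 0.098.

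The other Gria1 set, 92944_at, did not show that pattern. It read 1027.9, 1042.8, 1029.8 and 906.2 in DBA animals, against 1134.9, 926.8, 1015.2, 886.8 and 995.3 in C57 animals. The groups overlapped throughout, with a log2 difference of 0.017 ± 0.11 (adjusted p = 0.970) and a 95% interval of -0.22 to 0.25. C57 animal 1 was the highest of the 9 here.

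The 2 Gria1 sets can be compared within each animal, where the scaling of the array cancels. The log2 ratio of 92943_at over 92944_at was 0.81, 0.74, 0.74 and 0.85 in DBA animals, against 0.60, 0.37, 0.38, 0.39 and 0.22 in C57 animals. The groups did not overlap, and C57 animal 1 was again the one nearest to DBA. The mean log2 ratio differed by 0.39 ± 0.14, which did not pass the threshold over the 1528 such pairs of sets on the array (limma adjusted p = 0.337; without each animal in turn, 0.253 to 0.573). Among the 7 pairs of the glutamate genes, none passed, against 2.55% of all pairs, and this 1 had no overlap, against 5.50%. The sequences under the probes were not analysed here.

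**Figure D3:**
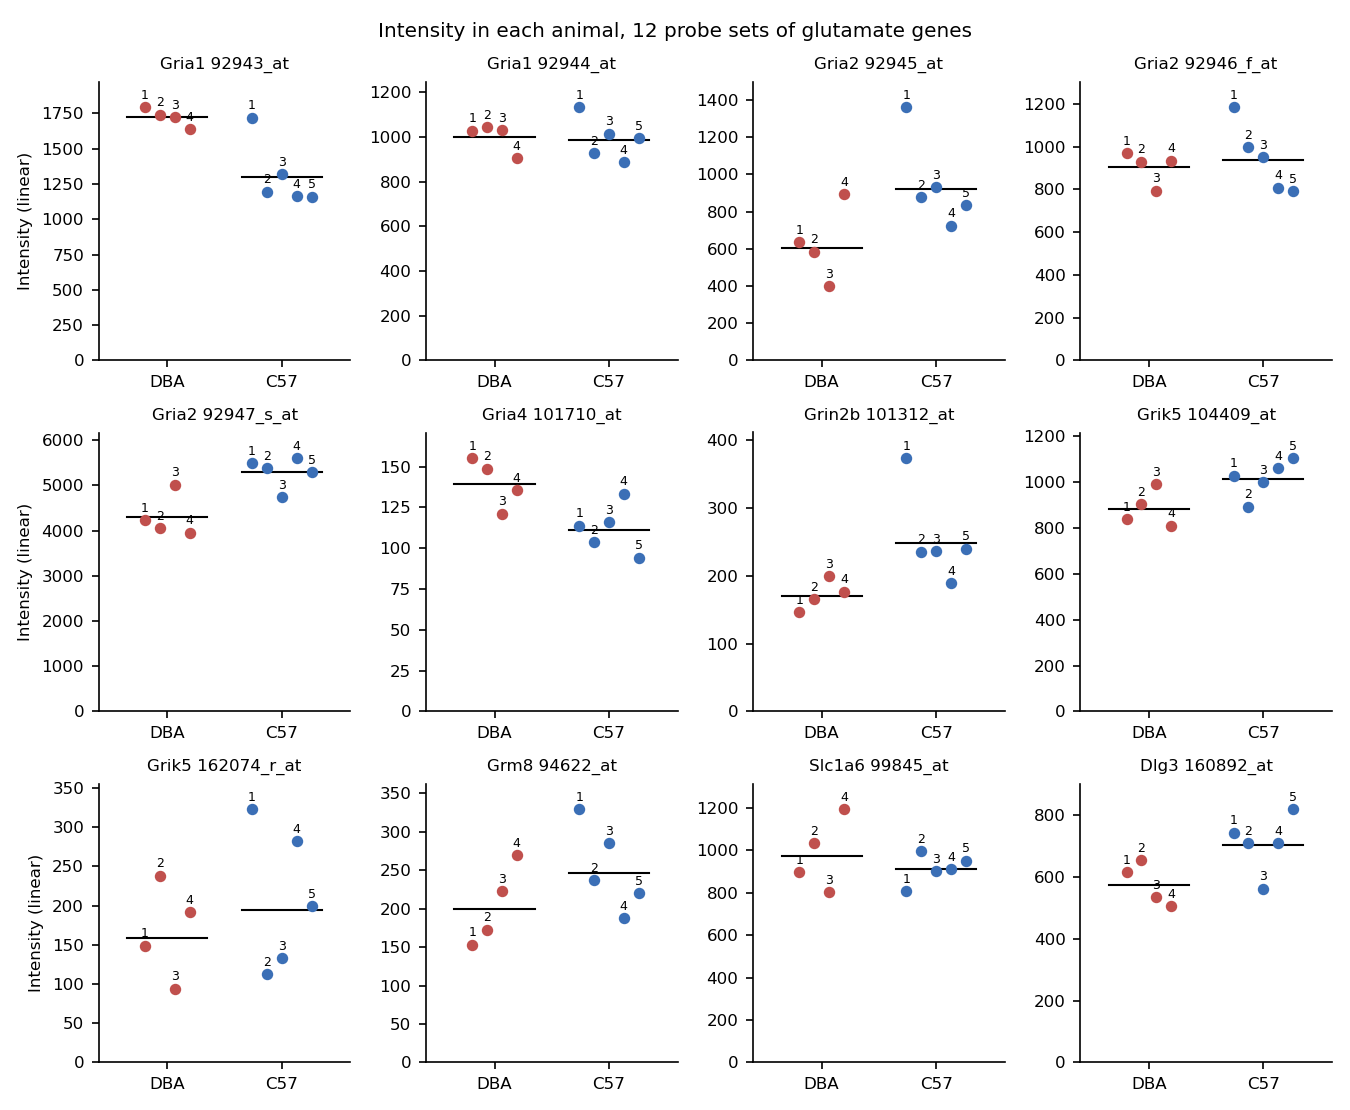
Deposited intensity (linear axes from 0) is plotted for 12 probe sets (those with an unadjusted p under 0.05, the smallest p of each role and other tested sets of these genes), DBA left and C57 right, each point numbered by its animal, with a bar at the geometric mean. At Gria1 92943_at the DBA points lie at 1637.6 to 1796.4 and C57 animal 1 is at 1720.6 above the other C57 points, and the same C57 animal is the highest point at Gria2 92945_at and Grin2b.

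Gria2 encodes GluA2, the subunit that makes AMPA receptors nearly impermeable to calcium. Its brightest set, 92947_s_at, read 4228.7, 4045.6, 5016.9 and 3953.6 in DBA animals, against 5494.6, 5380.2, 4733.5, 5606.4 and 5287.5 in C57 animals. Only DBA animal 3 and C57 animal 3 crossed the gap between the groups. DBA stood at 0.811 times the C57 level (log2 difference -0.30 ± 0.11, adjusted p = 0.254).

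The Gria2 set 92945_at read 635.7, 584.2, 398.1 and 892.6 in DBA animals, against 1362.5, 877.4, 929.8, 723.5 and 834.2 in C57 animals. It spread widely within both strains, with DBA animal 4 inside the C57 range and C57 animal 1 far above the rest. Its log2 difference was -0.62 ± 0.24 (adjusted p = 0.330), and -0.47 without C57 animal 1 (adjusted p = 0.473).

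The third tested Gria2 set, 92946_f_at, whose suffix marks probes shared by a family of similar sequences, read 971.0, 929.5, 794.6 and 934.5 in DBA animals, against 1186.3, 997.8, 949.5, 808.7 and 793.3 in C57 animals. Its difference was -0.050 ± 0.14 (adjusted p = 0.929) and turned to 0.035 without C57 animal 1. The DBA animals did not keep one order across the Gria2 sets: DBA animal 3 was the highest of the 4 at 92947_s_at and the lowest at the other 2. The log2 ratio of 92947_s_at over 92945_at was accordingly 3.66 in that animal, while the remaining DBA animals were at 2.15 to 2.79 and the C57 animals at 2.01 to 2.95. The mean ratio differed by 0.31 ± 0.30 (adjusted p = 0.821), and that of 92947_s_at over 92946_f_at by -0.25 ± 0.19 (adjusted p = 0.779).

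**Figure D4:**
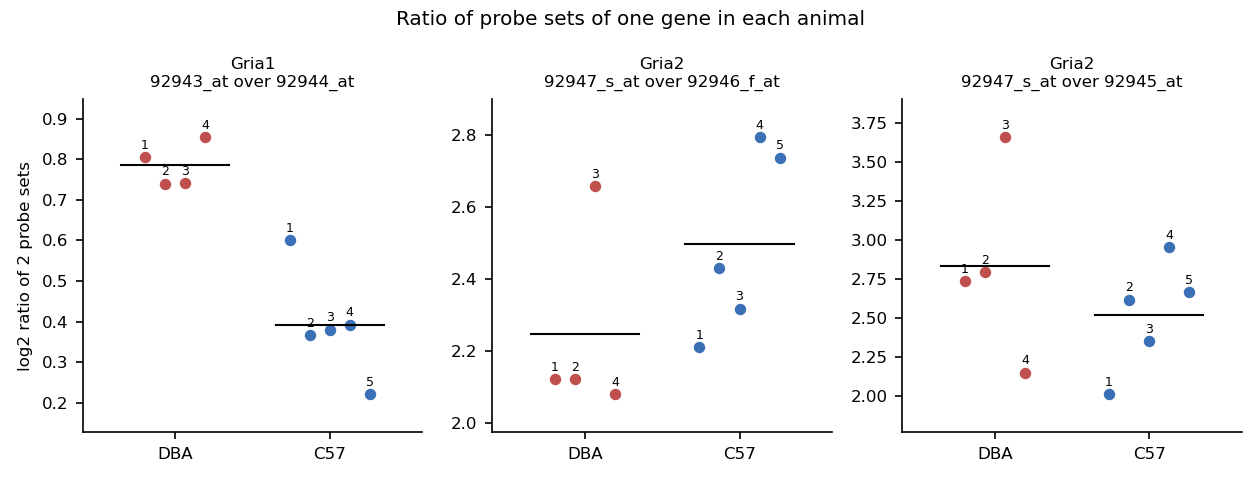
The log2 ratio of 2 probe sets of one gene is plotted in each animal, DBA left and C57 right, for Gria1 (left panel) and for both Gria2 pairs (centre and right panels), with bars at the strain means; each panel has its own range. The Gria1 ratios do not overlap (0.74 to 0.85 in DBA, 0.22 to 0.60 in C57), while both Gria2 ratios do, with DBA animal 3 above the other DBA animals.

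Gria4, whose GluA4 subunit gives AMPA receptors fast kinetics and is prominent in cerebellum and in fast-spiking interneurons, read 155.4, 148.8, 121.1 and 135.4 in DBA animals, against 113.8, 103.8, 115.8, 133.4 and 94.2 in C57 animals. C57 animal 4 lay above DBA animal 3, and the other animals were apart by strain. DBA stood at 1.25 times the C57 level (0.32 ± 0.13, adjusted p = 0.329), and the difference was 0.33 without C57 animal 1. Gria3, the remaining AMPA subunit gene, ranged from 384.7 to 609.4 in DBA and from 335.5 to 796.6 in C57 animals, with the highest value again in C57 animal 1 (0.058 ± 0.25, adjusted p = 0.958).

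Among NMDA receptor subunits, Grin2b had the smallest p. Its GluN2B subunit prevails early in life and in forebrain, and gives slow receptor currents. The set read 146.5, 165.5, 199.2 and 176.8 in DBA animals, against 374.1, 235.6, 236.7, 188.9 and 240.1 in C57 animals. All C57 animals except animal 4 lay above every DBA animal, and animal 4 lay between DBA animals 3 and 4. Grin2b averaged 172.0 ± 22.0 in DBA and 255 ± 69.8 in C57 animals (SD, n = 4 and 5). DBA stood at 0.688 times the C57 level (-0.54 ± 0.19, adjusted p = 0.241), and the log2 difference was -0.39 (95% interval -0.70 to -0.086, adjusted p = 0.264) without C57 animal 1, which lay 0.74 above the mean of the other C57 animals.

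Grin2c encodes GluN2C, which in adult brain marks cerebellar granule cells. It was the only glutamate set whose strains did not overlap and is given in full after its values were seen. It read 801.0, 903.0, 849.5 and 834.7 in DBA animals, against 716.3, 647.1, 791.0, 781.5 and 743.2 in C57 animals. DBA stood at 1.15 times the C57 level, and the difference of 0.21 ± 0.098 did not pass (adjusted p = 0.451). The cerebellum marker list also read higher in DBA, at a mean of 0.095 ± 0.17 log2 units, against -0.076 ± 0.060 in C57 animals (SD; exact 2-sided permutation p = 0.111, adjusted over 8 lists 0.178). On that list DBA animals 1 to 4 were at 0.073, 0.22, -0.14 and 0.22, and C57 animals 1 to 5 at -0.046, 0.010, -0.14, -0.13 and -0.084. DBA animal 3 was thus low on the cerebellum list while its Grin2c value was the second highest. The part of cerebellar tissue in the Grin2c values was not tested. In whole brain RNA, fewer cells of a type and less RNA per cell cannot be told apart.

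The other NMDA subunit genes had wide intervals. Grin2a, of the GluN2A subunit that joins receptors as synapses mature, ranged from 80.0 to 152.7 in DBA and from 26.3 to 142.8 in C57 animals (0.34 ± 0.44, adjusted p = 0.839). Grin2d, of the slowly deactivating GluN2D subunit, read 132.0, 123.8, 40.2 and 139.6 in DBA animals, against 182.6, 70.4, 68.0, 116.9 and 58.2 in C57 animals (0.12 ± 0.44, adjusted p = 0.949). Both intervals reach past a 2-fold change.

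Kainate receptor subunits gave 4 of 5 sets below 0, with a median of -0.20, and none had an unadjusted p under 0.05. Those 4 sets belong to Grik2 and Grik5 alone. Without C57 animal 1, Grik2 98864_s_at turned to 0.025, while the other sets of these genes stayed below 0. Grik5 encodes GluK5, a subunit that raises agonist affinity but needs GluK1 to GluK3 to form a channel. Its set 104409_at read 836.7, 902.9, 991.8 and 810.1 in DBA animals, against 1027.2, 892.7, 998.8, 1060.8 and 1105.2 in C57 animals. All C57 animals except animal 2 lay above every DBA animal, and animal 2 lay below DBA animals 2 and 3. The difference was -0.20 ± 0.11 (adjusted p = 0.515).

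The second Grik5 set, 162074_r_at, was dimmer and far more scattered. It read 149.0, 238.0, 93.9 and 191.9 in DBA animals, against 323.4, 112.9, 133.3, 282.4 and 199.1 in C57 animals (-0.29 ± 0.36, adjusted p = 0.839). The difference was -0.033 without DBA animal 3 and -0.10 without C57 animal 1. Grik2, of the GluK2 subunit, gave a difference of -0.22 ± 0.14 at 98863_at, with 146.5 to 186.1 in DBA and 166.6 to 233.9 in C57 animals (adjusted p = 0.593). Its set 98864_s_at gave -0.097 ± 0.21, with 189.2 to 304.3 in DBA and 204.8 to 387.5 in C57 animals (adjusted p = 0.913). Grik1, of GluK1, ranged from 61.5 to 114.7 in DBA and from 63.9 to 98.4 in C57 animals (0.10 ± 0.20, adjusted p = 0.901).

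The metabotropic receptors were represented by Grm8, a presynaptic group III receptor that inhibits transmitter release. It read 153.3, 172.8, 223.0 and 269.2 in DBA animals, against 329.7, 236.6, 285.0, 187.6 and 219.7 in C57 animals. The ranges overlapped widely, with the highest value in C57 animal 1. The difference was -0.31 ± 0.21 (adjusted p = 0.650), -0.20 without that animal and -0.18 without DBA animal 1, the lowest.

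Of the plasma membrane transporters, Slc1a6 (EAAT4) is the glutamate carrier of cerebellar Purkinje cells. It read 897.2, 1034.8, 802.6 and 1195.1 in DBA animals, against 807.0, 997.2, 902.9, 909.7 and 950.8 in C57 animals. The C57 values lay inside the DBA range, and the difference was 0.092 ± 0.13 (adjusted p = 0.860). Within DBA the 4 animals took the same order as on the cerebellum marker list, with animal 3 lowest and animal 4 highest. C57 animals 2 to 5 also kept their order on that list, while C57 animal 1 was the lowest at Slc1a6 but not on the list. The orders were compared after the values were seen, and the part of cerebellar tissue in the Slc1a6 values was not tested. Slc1a1 (EAAT3), the neuronal carrier, ranged from 465.0 to 565.7 in DBA and from 387.7 to 652.8 in C57 animals at 104747_at (-0.048 ± 0.15, adjusted p = 0.940). At 104748_s_at it ranged from 119.2 to 178.3 in DBA and from 108.2 to 179.9 in C57 animals (0.070 ± 0.19, adjusted p = 0.929).

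Of the scaffold genes, Dlg3 (SAP102), which links NMDA receptors to the cytoskeleton and traffics them during synapse formation, had the smallest p. It read 616.2, 654.3, 535.8 and 507.3 in DBA animals, against 743.9, 709.5, 563.3, 710.3 and 821.5 in C57 animals. Only C57 animal 3 fell inside the DBA range. DBA stood at 0.817 times the C57 level (-0.29 ± 0.13, adjusted p = 0.424), and the difference was -0.27 without C57 animal 1. Dlg4, of PSD-95, the most abundant member of the same family at mature synapses, read 1218.7, 1628.2, 1623.5 and 1104.1 in DBA animals, against 1305.1, 1446.6, 1269.0, 1373.9 and 1431.5 in C57 animals. Its DBA animals split into a high and a low pair on either side of the C57 range, and the difference was 0.010 ± 0.14 (adjusted p = 0.988).

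The Homer proteins tie group I metabotropic receptors to Shank and to intracellular calcium stores, and a short Homer1 form is induced by neuronal activity. Homer1 read lower in DBA at both sets without passing. At 104499_at it read 149.0, 152.6, 94.0 and 142.4 in DBA animals, against 191.6, 181.6, 121.9, 170.3 and 210.9 in C57 animals. Only C57 animal 3 lay below any DBA animal, and DBA animal 3 was the lowest of all (-0.38 ± 0.20, adjusted p = 0.491). Without DBA animal 3 the difference was -0.22 (adjusted p = 0.790).

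At the dim Homer1 set 104498_at, the values were 39.9, 52.6, 6.5 and 34.0 in DBA animals, against 108.7, 81.1, 52.4, 37.7 and 31.2 in C57 animals. Its geometric mean was 26.1 in DBA, below the brightness limit of 35.4, and 55.8 in C57 animals. The size of the difference therefore rests partly on DBA values near or below that limit. The estimate was the largest among the 26 sets, -1.10, with the largest standard error, 0.61 (adjusted p = 0.538). DBA animal 3, at 6.5, was far below the rest and C57 animal 1 was the highest. The difference was -0.43 without DBA animal 3 (adjusted p = 0.842) and -0.86 without C57 animal 1 (adjusted p = 0.705). Homer2 ranged from 125.3 to 189.3 in DBA and from 104.5 to 314.4 in C57 animals (-0.22 ± 0.30, adjusted p = 0.851; -0.022 without C57 animal 3). Homer3, enriched in Purkinje cells, ranged from 430.4 to 502.0 in DBA and from 388.0 to 517.0 in C57 animals (0.090 ± 0.12, adjusted p = 0.847; 0.044 without DBA animal 2).

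**Figure D5:**
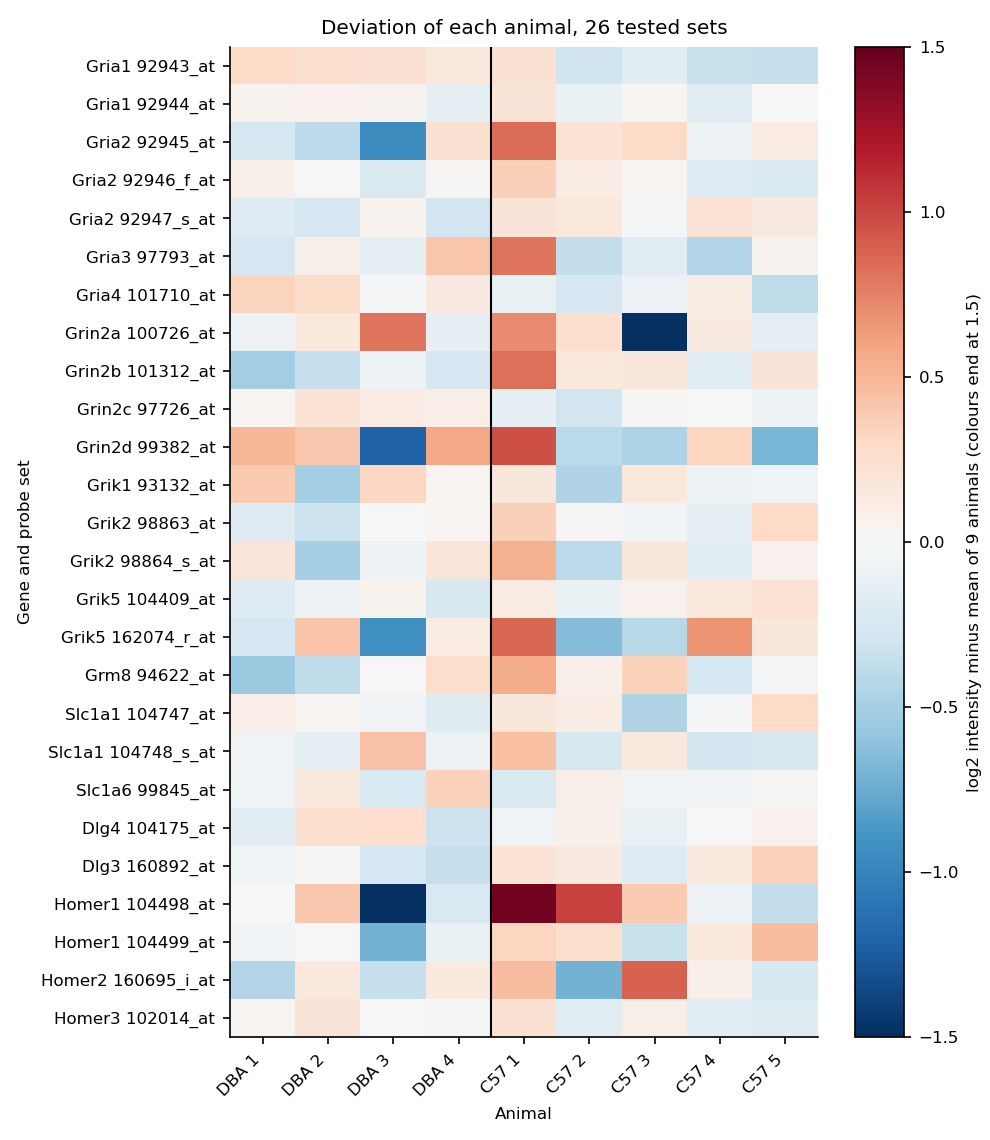
Each square gives the log2 intensity of 1 animal minus the mean of the 9 animals at 1 of the 26 tested probe sets, DBA columns left of the line and C57 columns right; the colours end at 1.5 in either direction. The column of C57 animal 1 is red at most rows, the column of DBA animal 3 reaches its darkest blue at Homer1 104498_at and Grin2d, and no block of rows separates the strains.

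By the brightest set of each gene, 0 of 19 genes passed the threshold, against 2.24% of all genes, and 4 of 19 had an unadjusted limma p under 0.05, against 12.7%. The median difference was 0.010, against 0.010 over all 6864 genes. The spread within the strains was close to that of the array, with a median residual SD of 0.26 log2 units over the 26 sets, against 0.24 over all sets, and 0.23 against 0.24 without C57 animal 1. It ran from 0.10 at Grin2c to 1.06 at the Homer1 set 104498_at.

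Other genes of the glutamate synapse were listed by role, 75 in all, of which 32 were tested by their brightest set: 1 passed higher in DBA (0.772% of all genes), 2 passed lower (1.46% of all genes) and the others did not pass. The median difference was -0.018. Of 13 receptor-linked kinases and phosphatases, 1 passed. This was Src, a kinase that phosphorylates NMDA receptors and enhances their current, at 212.8, 237.5, 294.5 and 251.8 in DBA animals, against 108.7, 96.3, 74.8, 94.5 and 104.6 in C57 animals. Every DBA animal stood well above every C57 animal, at 2.60-fold (log2 difference 1.38 ± 0.14, adjusted p = 0.000510).

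Of 12 genes for receptor trafficking and other scaffold, 2 passed, both lower in DBA. Dlgap4, a scaffold protein that binds PSD-95 and Shank, read 412.4, 383.1, 510.7 and 456.2 in DBA animals, against 896.3, 786.0, 787.7, 720.1 and 835.3 in C57 animals. The groups lay far apart, with DBA at 0.545 times the C57 level (-0.87 ± 0.12, adjusted p = 0.00254). Nptx2, a secreted pentraxin that clusters AMPA receptors and is induced by activity, read 184.3, 210.9, 187.6 and 227.4 in DBA animals, against 424.1, 354.6, 366.2, 301.1 and 267.2 in C57 animals. These groups did not overlap either (-0.75 ± 0.15, adjusted p = 0.0260), but the call was lost when C57 animal 2 or 3 or DBA animal 1, 2 or 3 was left out (adjusted p = 0.0666 to 0.0916). Src and Dlgap4 passed without each animal in turn, but Dlgap4 did not pass in the fit with the animal number as a replicate block (adjusted p = 0.0899). Each of the 3 genes had 1 tested set.

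Neither of 2 other glutamate receptor genes passed (Grid1, of the delta receptors, 0.16 ± 0.16, adjusted p = 0.800, and 0.015 without DBA animal 2). None of 5 genes of glial uptake and glutamate metabolism passed. The smallest p there was that of Glud1, glutamate dehydrogenase, at 1.27 times the C57 level in DBA (0.34 ± 0.093, adjusted p = 0.120). An unadjusted limma p under 0.05 was found for 3 of the 5, against 12.3% of all genes, and these went both ways. Beside Glud1 they were Slc1a2, the main astrocytic glutamate carrier (0.34 ± 0.12, adjusted p = 0.229), and Glul, the glutamine synthetase of astrocytes. Glul read 1197.3 to 1462.4 in DBA and 1507.8 to 2490.9 in C57 animals at its brightest set, with no overlap (-0.54 ± 0.16, adjusted p = 0.140). The other tested Glul set did not show that difference. It read 449.3 to 639.6 in DBA and 389.3 to 779.8 in C57 animals (-0.0091 ± 0.22, adjusted p = 0.993). Slc1a2 and Glul are named after their values were seen.

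Marker lists of cell types and regions were compared beside these values by exact 2-sided permutation of the animals between the strains. The astrocyte list, of 8 tested genes, includes Glul (-0.54) and Slc1a2 (0.34) by the sets described above. It is therefore not independent of those values. None of 8 lists passed after adjustment (adjusted p of at least 0.127), and the smallest p the design allows is 0.0159. A list that alone reached this p could not pass, since its adjusted p over 8 lists would be 0.127. The lack of a pass therefore does not show that the strains were alike. On the microglia list every DBA animal (-0.28 to -0.034) lay below every C57 animal (-0.027 to 0.17). Of its 10 tested genes, only C1qb and C1qc had ranges that did not overlap. C1qb read 511.8 to 659.0 in DBA and 898.4 to 1122.6 in C57 animals, and C1qc 617.3 to 810.8 and 989.9 to 1274.5. Ctss, the brightest gene of the list, leaned the other way (2240.4 to 2684.4 in DBA, 1633.0 to 2267.7 in C57 animals). The neuron list stood at -0.0029 ± 0.057 in DBA and 0.0023 ± 0.025 in C57 animals (SD; p = 0.889). The microglia list stood at -0.098 ± 0.12 in DBA and 0.079 ± 0.079 in C57 animals (p = 0.0159), and the astrocyte list at -0.055 ± 0.053 in DBA and 0.044 ± 0.065 in C57 animals (p = 0.0476). The oligodendrocyte list stood at -0.19 ± 0.089 in DBA and 0.15 ± 0.24 in C57 animals (p = 0.0635), and the thalamus, midbrain and brainstem list at 0.11 ± 0.10 in DBA and -0.086 ± 0.14 in C57 animals (p = 0.0476). Cortex and hippocampus stood at -0.043 ± 0.036 in DBA and 0.034 ± 0.12 in C57 animals (p = 0.302), and striatum at -0.035 ± 0.11 in DBA and 0.028 ± 0.091 in C57 animals (p = 0.349).

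RNA quality was compared by the log2 ratio between 3' and 5' control sets. For Gapdh it was -0.36 ± 0.057 in DBA and -0.24 ± 0.038 in C57 animals (SD; exact 2-sided permutation p = 0.0159, adjusted over 4 controls 0.0635), and for the other 3 controls it was lower in DBA with adjusted p of at least 0.127. For Gapdh every DBA animal (-0.44 to -0.32) lay below every C57 animal (-0.29 to -0.19), which gave the smallest p the design allows. A control that alone reached this p could not pass after adjustment over 4 controls. The part of cell make-up and RNA quality in the strain differences of the glutamate genes was not tested.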

How the data were processed

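Whole brain RNA of 4 DBA and 5 C57 animals was measured on 9 Affymetrix arrays, from 5 ug of total RNA by the array maker's standard cRNA procedure, per the labels' protocol. Groups and numbers were taken from the sample titles, since the descriptions give every sample the same alternative name. The other 18 arrays of the series, on another platform, were not used here. The deposited values are intensities on a linear scale, 1 per probe set and array. The scanner software, the probe summary and the scaling method are each not given in the sources used. The mean of each array without the top and bottom 2% of its intensities was 499.946 to 500.581, so the deposited arrays share one scale. The number of arrays limits the precision.

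Here, 66 control sets were removed. A floor was set at the 1st percentile of the positive intensities (1.70), to which 0.978% of values were raised, log2 was taken, and the dimmest 25% of sets by mean were left out, which left 9316. Strains were compared by limma 3.58.1 (lmFit, then eBayes; R 4.3.3) in a 2-sided test, with Benjamini-Hochberg adjustment over all tested sets and an adjusted p under 0.05 as the threshold. Ratios between sets of one gene set the brightest against each other tested set, and were fitted the same way. Symbols come from the platform annotation, updated through RefSeq's genes for GRCm38.p6, and sets annotated with several symbols were treated as unnamed. Permutation tests used SciPy 1.17.1, and figures Matplotlib 3.10.9.

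The members and lists were chosen with earlier results of these data known. Values in every animal are given for sets with an unadjusted p under 0.05, for the set with the smallest p of each role and for other tested sets of those genes; Grin2c, Grin2d, Dlg4 and Homer1 were added after their values were seen. Of the other pathway lists, genes past the threshold and the smallest p of each list are named. Alternatives were other scaling, floors, filters, variance model, a replicate block, 1 set per gene and leaving out each animal. Leaving out C57 animal 1 together with quantile normalization, and the leave-outs of the ratios, were chosen after seeing the data.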

Additional observations from a re-analysis of the deposited data

Results flagged for a closer look

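In 4 of 52 groups of values (26 tested glutamate probe sets in each strain) 1 animal lay far from the others of its strain by Dixon's test; chance gives about 1 in 20. All 4 were DBA animals. At the Gria1 set 92944_at, DBA animal 4 read 906.2, against 1027.9 to 1042.8 in the other DBA animals. The other 3 were DBA animal 3. At Grin2d it read 40.2, against 123.8 to 139.6 in the other DBA animals. At the Homer1 set 104499_at it read 94.0, against 142.4 to 152.6. At the Slc1a1 set 104748_s_at it read 178.3, above the 119.2 to 126.5 of the other DBA animals. C57 animal 1, highest of its strain at 16 of the 26 sets, was flagged at 0 of them.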

How the results depend on the processing

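Of 19 alternatives, the number of glutamate sets passing lower in DBA was 0 in all. The number passing higher was 0 in 17, and 1 (Gria1 92943_at) without C57 animal 1 and without that animal under quantile normalization (log2 difference 0.52, adjusted p = 0.0234). The median difference moved by less than the spread between animals in all 19. The count of sets with no overlap was 1, and 3 under quantile normalization, 1 to 4 when single animals were left out and 4 without C57 animal 1 under quantile normalization. Of 223 values of the 12 sets described animal by animal under the naming rule, 214 kept direction and side of the threshold, 2 passed it and 7 changed sign, all with adjusted p of at least 0.953. Gria1 92944_at turned to -0.0059, -0.022 and -0.0029 without C57 animal 2, C57 animal 4 or DBA animal 2 (without single animals -0.022 to 0.067). Gria2 92946_f_at turned to 0.035, 0.012 and 0.037 without C57 animal 1, DBA animal 3, or C57 animal 1 under quantile normalization (without single animals -0.11 to 0.035). Slc1a6 turned to -0.0074 without DBA animal 4 (-0.0074 to 0.18). Of the ratios, that of Grik5 turned to -0.095, -0.034 and -0.22 without C57 animal 1, C57 animal 4 or DBA animal 3 (-0.22 to 0.27), and that of Slc1a1 to 0.0049 and 0.024 without C57 animal 5 or DBA animal 3 (-0.28 to 0.024). The neuron list turned to 0.015, 0.0038 and 0.0057 without DBA animal 1, DBA animal 2 or C57 animal 3 (-0.030 to 0.015). Nptx2 lost its call also with no filter on dim sets (adjusted p = 0.0549), and Glud1 passed with the trended, robust variance model (adjusted p = 0.0402). The causes were not tested.

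Same-numbered animals did not deviate together (correlations -0.10, -0.016, -0.0070 and -0.17). The labels do not say what the number stands for, and whether same-numbered animals shared a batch or handling was not tested. With the number as a replicate block, on 8 arrays, 73 of 9316 sets passed, against 233, 0 of the glutamate sets passed, and the difference of Gria1 92943_at was 0.37 (adjusted p = 0.513). By the brightest set of each gene 154 of 6864 genes passed. Dlgap4 and Nptx2 did not pass in the block fit (adjusted p = 0.0899 and 0.147), and Src did.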
